A study of Mus musculus with 2 samples.

Results

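Transcripts of 33 genes of the striated muscle contractile apparatus and its energy supply were examined in adrenal gland RNA, out of 55536 genes measured. The 33 come from a set of symbols chosen by the measured difference in expected counts and TPM between the 2 libraries. Most of them were far higher in animal 1, and Pygm the least so, with a ratio of 1.20. The size and direction of that difference therefore describe the set and support nothing further. All 33 symbols were found in the gene tables. From textbook knowledge, 13 of them are typical of fast fibres, 7 of slow fibres, and 13 are common to both kinds or wider in use. The material was whole adrenal gland from 2 female mice of the strain B6CASTF1/J, an F1 hybrid of C57BL/6J and CAST/EiJ, 18 to 20 months old and with no treatment given in the labels. Each animal gave 1 stranded total RNA library from 300 ng of RNA after ribosomal RNA reduction, with ERCC spike-ins. Both libraries carry the same donor identifier in the labels, while the replicate numbers, tissue samples and animal names differ, and 1 description of animal 2 repeats the name of animal 1. There is 1 group and 1 library per animal, so no test was made, and a difference between the animals cannot be told apart from one of dissection or library preparation.

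Striated muscle contracts when myosin of the thick filament pulls on actin of the thin filament within the sarcomere. Calcium released from the sarcoplasmic reticulum binds troponin C, and the troponin and tropomyosin complex then uncovers actin. Fast and slow fibres build the same machine from different genes for myosin, troponin and the calcium pump. The adrenal gland itself is made of a steroid-producing cortex and a catecholamine-producing medulla and lies in fat near muscle of the back and diaphragm.

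The labelled tissue was checked against its markers, with 8 cortex genes reaching a joint 15869 TPM in animal 1 against 20272 TPM in animal 2, and 7 medulla genes 1813 against 1531 TPM. None of these 15 genes was 2-fold apart by the rule used for the 33. TPM is transcript abundance per length, made relative to the sum over a library. Expected counts, which are estimated reads per gene, summed to 35769717 in animal 1 and 35135703 in animal 2, spike-ins included.

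Together the 33 genes reached 369 TPM in animal 1, against 50.6 TPM in animal 2 (mean 210 ± 225, SD, n = 2), a 7.29-fold ratio of sums. They took 34662 expected counts in animal 1, or 0.0969% of the library (95% Wilson interval 0.0959 to 0.0979), and 3463 counts in animal 2, or 0.00986% (0.00953 to 0.0102). Such intervals cover counting error only. At 1 TPM or more stood 32 of the 33 genes in animal 1, Tnni1 at 0.67 TPM being the exception, and 7 of the 33 in animal 2. The 7 genes at that level in both animals were Pygm, Tpm2, Eno3, Des, Myl1, Neb and Mb. The other 25 of the 32 crossed the 1 TPM line between the animals, as did 3.92% of all genes at 1 TPM or more in animal 1. In bulk tissue, fewer cells of a type and less RNA per cell cannot be told apart.

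**Figure D1:**
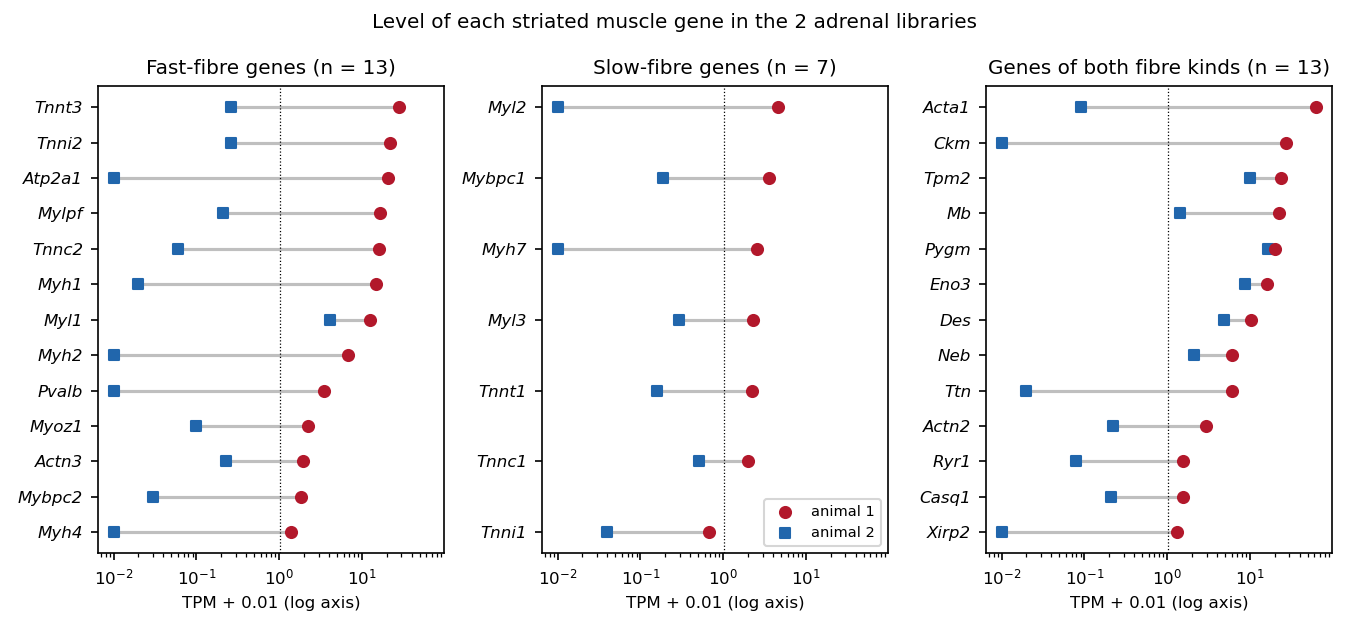
Level of each of the 33 genes in TPM (0.01 added, log axis), with animal 1 as circles and animal 2 as squares, in panels for fast-fibre genes, slow-fibre genes and genes of both fibre kinds. The dotted line marks 1 TPM. Every circle lies to the right of its square, and the squares of 7 genes lie above 1 TPM.

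Promoter sequences are shown for the 3 genes with the highest level in animal 1 among those under 1 TPM in animal 2, Acta1, Ckm and Atp2a1, and for the 3 with the highest level in animal 2, Pygm, Tpm2 and Eno3, so that the start regions of genes with low and high levels in animal 2 can be read side by side. They are the RefSeq sequences on GRCm38.p6, from 250 bases before to 50 bases after the start site, 5′ to 3′ on the gene's own strand. Their places are chr8:123894726-123895025 (minus strand) for Acta1, chr7:19410844-19411143 (plus) for Ckm, chr7:126463024-126463323 (minus) for Atp2a1, chr19:6384158-6384457 (plus) for Pygm, chr4:43523505-43523804 (minus) for Tpm2 and chr11:70656926-70657225 (plus) for Eno3. Capitals mark the E-box CAGCTG, the TATAAA box and the CArG box.
Acta1: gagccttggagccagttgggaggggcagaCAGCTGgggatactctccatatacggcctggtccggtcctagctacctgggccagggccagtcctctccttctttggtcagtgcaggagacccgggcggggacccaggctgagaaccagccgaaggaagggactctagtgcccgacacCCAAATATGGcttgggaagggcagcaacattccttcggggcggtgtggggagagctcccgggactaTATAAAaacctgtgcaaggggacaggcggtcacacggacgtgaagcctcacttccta
Ckm: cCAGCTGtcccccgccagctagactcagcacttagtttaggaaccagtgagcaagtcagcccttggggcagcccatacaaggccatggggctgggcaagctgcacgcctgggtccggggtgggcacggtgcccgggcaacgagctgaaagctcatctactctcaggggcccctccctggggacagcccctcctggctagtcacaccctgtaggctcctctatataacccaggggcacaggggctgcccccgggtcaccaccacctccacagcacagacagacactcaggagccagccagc
Atp2a1: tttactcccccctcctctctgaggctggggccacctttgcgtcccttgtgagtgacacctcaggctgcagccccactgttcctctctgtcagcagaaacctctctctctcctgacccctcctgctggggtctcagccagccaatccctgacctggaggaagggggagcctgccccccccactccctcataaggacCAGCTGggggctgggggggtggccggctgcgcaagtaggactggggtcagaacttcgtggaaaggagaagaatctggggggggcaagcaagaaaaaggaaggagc
Pygm: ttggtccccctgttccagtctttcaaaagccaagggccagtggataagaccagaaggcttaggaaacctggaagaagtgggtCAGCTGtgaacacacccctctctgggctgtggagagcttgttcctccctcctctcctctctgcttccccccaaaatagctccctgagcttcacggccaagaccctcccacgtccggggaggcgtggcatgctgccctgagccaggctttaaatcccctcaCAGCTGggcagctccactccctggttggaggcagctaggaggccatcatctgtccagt
Tpm2: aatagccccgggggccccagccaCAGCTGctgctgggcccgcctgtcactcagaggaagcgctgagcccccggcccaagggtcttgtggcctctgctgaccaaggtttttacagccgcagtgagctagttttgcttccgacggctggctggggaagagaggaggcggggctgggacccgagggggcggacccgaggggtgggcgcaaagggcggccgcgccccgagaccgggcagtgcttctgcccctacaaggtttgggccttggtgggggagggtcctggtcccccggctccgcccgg
Eno3: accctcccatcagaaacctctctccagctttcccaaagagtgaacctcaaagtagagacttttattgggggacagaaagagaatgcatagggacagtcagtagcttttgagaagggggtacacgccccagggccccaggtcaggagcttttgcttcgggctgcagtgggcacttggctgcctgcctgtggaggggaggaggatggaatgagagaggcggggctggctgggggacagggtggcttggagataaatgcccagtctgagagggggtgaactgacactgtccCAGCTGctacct

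All 6 hold at least 1 CAGCTG, the E-box letters that myogenic factors such as MyoD can bind, and Pygm holds 2, at positions -168 and -8 from the start site. Acta1 also holds the CArG box, the site of serum response factor, at position -73 and TATAAA at position -7. RefSeq promoters were found for 28 of the 33 genes, and Tnni2, Neb, Myoz1, Actn3 and Tnnt3 had no entry. For genes with several promoters the one nearest to the start of the transcript with the most counts was taken, and 22 of the 28 lay within 100 bases of that start. CAGCTG, which reads the same on both strands, was present in 14 of the 28 and in 16.3% of all 32851 promoters of the same length. Among the 14, the promoters of Eno3, Mylpf, Myl1, Myl2 and Myh4 lay more than 100 bases from the start of the transcript with the most counts. The 32851 can hold several promoters of 1 gene, while the 28 hold 1 per gene. TATAAA on the gene's strand was present in 5 of 28 and in 8.32% of all, the CArG box on either strand in 3 of 28 (Acta1, Myh4 and Myl3) and in 1.63%, and the MEF2 site on either strand in 5 of 28 (Myh1, Myh4, Pvalb, Ttn and Xirp2) and in 3.19%. MEF2 is a factor of muscle differentiation. No match of 1 motif overlapped a match of another in the 28 promoters. A match of letters is no evidence of binding.

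A gene was called 2-fold apart when its TMM-scaled expected counts differed at least 2-fold, its mean count was at least 50 and the deposited TPM intervals did not overlap. A mean count of 50 or more was reached by 27 of the 33 genes, and 25 were called with higher values in animal 1, beside 1.75% of all 13569 genes with such a mean. Higher in animal 2 were 1.71% of all genes and none of the 33. Since the set was chosen for this difference, nothing is read from these counts. Pygm and Eno3 met the count minimum and were not called, and Tnnt1, Tnni1, Tnnc1, Myl2, Myl3 and Myoz1 had too few counts. All 33 had a higher scaled count in animal 1, also with spike-in scaling. Spike-in scaling moved the log2 ratio of every gene by -0.22 and the split of all called genes from 237 higher in animal 1 and 232 higher in animal 2 to 152 and 393. By it 24 of the 33 were called, and Des was lost. The median log2 ratio of animal 1 over animal 2 was 6.39 for the 33 genes and 0.01 for the 17012 genes whose mean count was 10 or more. With counts under 3 set to 3, it was 5.17 for the 33.

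**Figure D2:**
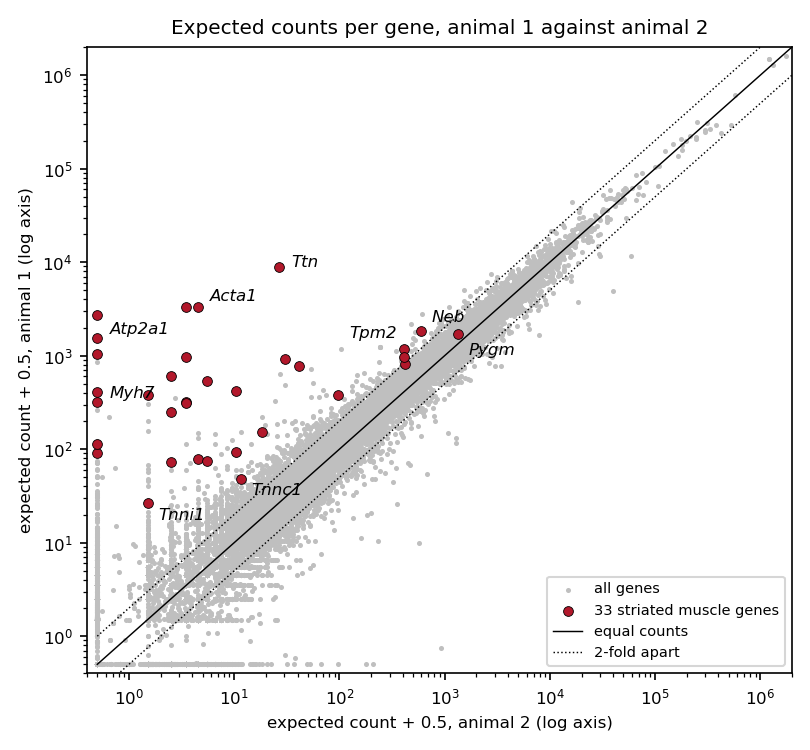
Expected counts per gene in animal 1 (vertical) against animal 2 (horizontal), 0.5 added, both axes logarithmic. Grey points are all genes and red points the 33 striated muscle genes, which run from Atp2a1 at 2701 and 0 counts to Pygm at 1712 and 1348 counts, next to the line of equal counts.

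Among myosin heavy chains, the motor proteins of the thick filament, Myh1 was the highest. Myh1 (chr11:67200052-67224575), the heavy chain of type IIx fibres, had 3301 counts and 14.9 TPM in animal 1 and 3 counts and 0.01 TPM in animal 2. Myh2, that of type IIa fibres, had 6.80 TPM in animal 1 and 0 in animal 2, and Myh4, that of the fastest IIb fibres, had 1.38 TPM and 0. Myh7, the heavy chain of slow fibres, which heart can also make, had 2.57 TPM in animal 1 and 0 in animal 2. All 4 were therefore present in animal 1 and at or under 3 counts in animal 2. Against the limit of 3 counts that a count of 0 allows per library, Myh2 was at least 490-fold, Myh7 at least 128-fold and Myh4 at least 99.8-fold higher in animal 1 by the gene table. In a second transcript table, made by another quantification of the library, Myh7 had 455 counts in animal 1 and 5 in animal 2, below that bound, and Myh4 330 and 3. Of the summed TPM of the 4 heavy chains in animal 1, Myh1 held 58.2%, Myh2 26.5% and Myh4 5.37%, and Myh7 the rest. That table gave 69.9% for Myh1, 18.7% for Myh2, 7.69% for Myh7 and 3.71% for Myh4, the same order. The order is one of transcripts and not of fibres. Some reads of these genes cannot be placed by sequence, since 9.24% of the 100-base windows of Myh1 transcripts, 7.80% of Myh2, 7.71% of Myh7 and 3.85% of Myh4 occur also in transcripts of other genes, those of Myh7 in Myh6. The genes Myh2, Myh1 and Myh4 lie in this order on chromosome 11, with gaps of 2.5 kb and 13.5 kb.

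Light chains, which stiffen and tune the myosin lever, were also higher in animal 1, by less for the essential than for the heavy chains. Mylpf, the fast regulatory light chain, had 322 counts and 16.7 TPM in animal 1 against 3 counts and 0.20 TPM in animal 2. Myl2, the slow and ventricular regulatory light chain, had 91 counts and 4.57 TPM in animal 1, against 0 in animal 2. By counts it was at least 28.6-fold higher in animal 1. Its deposited TPM intervals, 4.61 to 7.38 in animal 1 and 0.45 to 1.97 in animal 2, allow a far smaller ratio. Myl3, the slow essential light chain, had 74 counts in animal 1 and 5 in animal 2, a ratio of 14.0 (95% counting interval 5.73 to 44.3). Myl1, the fast essential light chain, stood apart with 382 counts and 12.4 TPM in animal 1 against 96 counts and 4.09 TPM in animal 2, a ratio of 3.76 (3.00 to 4.75). Myl1 made up 4.09 of the 4.58 TPM of the 8 myosin genes of the set in animal 2. Of its 100-base windows 4.45% occur also in the pseudogene Mylf-ps.

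The other thick filament genes gave the most counts of any role in animal 1, 9558, and the fewest in animal 2, 38. In TPM, which allows for length, they summed to 11.4 in animal 1 and 0.21 in animal 2, the lowest of any role in each. Ttn encodes titin, the elastic protein that runs from the Z-disc to the middle of the sarcomere, and at chr2:76703980-76982547 it is the longest of these genes. It had 8888 counts in animal 1 and 26 in animal 2, a ratio of 323 (220.1 to 494.4), and 5.98 and 0.01 TPM. The long transcript Ttn-205 had 5255 counts in animal 1 and 0 in animal 2, and Ttn-201 had 2591 and 8.16 counts. By TPM the short Ttn-215 led in animal 1 with 1.66, ahead of Ttn-205 with 1.33 TPM, whereas in the second table Ttn-205 led with 2.31 TPM against 1.30 for Ttn-215. Mybpc1, the slow form of myosin binding protein C, which fast fibres also make, had 3.59 TPM in animal 1 and 0.18 in animal 2. Mybpc2, the fast form, had 1.82 and 0.02 TPM.

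The thin filament genes summed to 164 TPM in animal 1, the largest part of the set there, and to 13.5 TPM in animal 2, where the energy genes held more. Acta1, skeletal alpha-actin (chr8:123891769-123894751, minus strand), was the highest of the 33 genes in animal 1 with 63.2 TPM from 3300 counts, and had 0.08 TPM from 4 counts in animal 2, a ratio of 779 (303.9 to 2860). On the other strand the gene Gm20388 spans Acta1 and had 25.4 counts in animal 1 and 353 in animal 2, without being called. Of the troponins, Tnnt3, the fast troponin T that anchors the complex on tropomyosin, had 28.1 TPM in animal 1 and 0.25 in animal 2. Tnni2, the fast inhibitory troponin I, had 21.9 and 0.25 TPM. Tnnc2, the fast calcium-binding troponin C, had 16.2 and 0.05 TPM. These fast troponins had between 379 and 972 counts in animal 1 and between 1 and 5 counts in animal 2. The slow forms were lower in animal 1, with 78 counts for Tnnt1, 48 for Tnnc1 and 26 for Tnni1, and had 4, 11 and 1 counts in animal 2. Tnnc1, which is also the troponin C of the heart, had 1.99 and 0.50 TPM, and its ratio of 4.12 (2.11 to 8.80) was the lowest among the troponins. Tnni2 and Tnnt3 are neighbours on chromosome 7, 54.4 kb apart.

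Neb and Tpm2 were the thin filament genes at 1 TPM or more in both animals. Neb encodes nebulin, the ruler protein along skeletal actin filaments (chr2:52136647-52378474), and had 1856 counts and 6.08 TPM in animal 1 against 592 counts and 2.10 TPM in animal 2, a ratio of 2.96 (2.70 to 3.25). Its transcript Neb-202 had 1050 and 362 counts. By TPM the short Neb-204 was slightly ahead of it in animal 1, with 1.32 against 1.21 TPM for Neb-202, and had no counts in animal 2. The second table had Neb-202 ahead, with 2.86 against 2.52 TPM for Neb-204. Neb thus differed from Ttn, the other giant filament protein, whose counts in animal 2 were 26.

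Tpm2 encodes beta-tropomyosin, which skeletal, smooth and non-muscle cells make in forms with different exons. The gene (chr4:43514711-43523765, minus strand) had 1186 counts and 23.9 TPM in animal 1 and 408 counts and 10.1 TPM in animal 2. Its 2 main transcripts, Tpm2-202 and Tpm2-203, share 6 exons with the same ends, and each has 3 whose ends are its own. These include an internal exon of 76 bases that sits at chr4:43518644-43518719 in Tpm2-202 and at chr4:43519003-43519078 in Tpm2-203. Tpm2-202 had 542 counts in animal 1 and 35.5 in animal 2, a ratio of 14.6 (10.4 to 21.2). Tpm2-203 had 616 counts in animal 1 and 343 in animal 2, a ratio of 1.70 (1.48 to 1.94). The difference of the gene between the animals was thus carried more by Tpm2-202. Of the counts of both transcripts Tpm2-202 held 46.8% in animal 1 (43.9 to 49.7) and 9.38% in animal 2 (6.73 to 12.6). The second table gave 46.7% and 10.9%, so this split was alike in both quantifications. Which cells made which form cannot be read from bulk tissue.

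**Figure D3:**
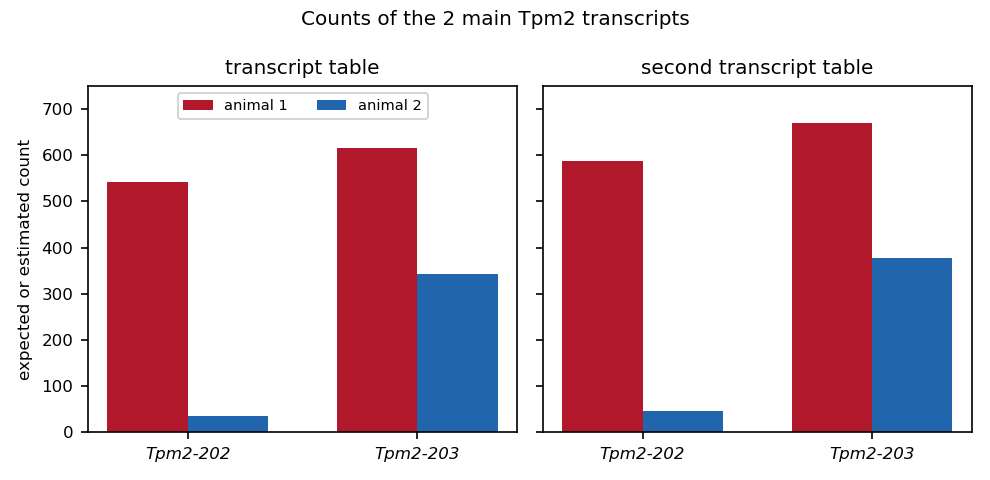
Counts of the 2 main Tpm2 transcripts in animal 1 (left bar of each pair) and animal 2 (right bar), with the transcript table in the left panel and the second transcript table in the right. Tpm2-202 stands at 542 and 35.5 counts in the first and Tpm2-203 at 616 and 343.

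The 4 calcium handling genes of the set were at or under 0.20 TPM in animal 2. Atp2a1, the SERCA pump that returns calcium to the reticulum of fast fibres (chr7:126445858-126463108, minus strand), had 2701 counts and 20.9 TPM in animal 1 but 0 counts in animal 2, a difference of at least 850.1-fold. Nearly all of these counts, 2692, fell on 1 transcript, Atp2a1-201. Ryr1, the calcium release channel, had 912 counts and 1.56 TPM in animal 1 and 30 counts and 0.07 TPM in animal 2. Casq1, the calcium store protein calsequestrin of skeletal muscle, had 92 and 10 counts, and Pvalb, the calcium buffer parvalbumin of fast fibres, 114 and 0 counts, at least 35.9-fold. Their sum over the 4 genes was 27.4 TPM in animal 1, against 0.27 TPM in animal 2.

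Energy genes split between presence and near absence in animal 2. Ckm, the muscle creatine kinase that refills ATP from phosphocreatine (chr7:19404776-19422841), had 1045 counts and 27.2 TPM in animal 1 but 0 counts in animal 2, at least 329-fold higher in animal 1 by this table. The second table had 1012 counts in animal 1 and 6 in animal 2, below that bound. Mb, the oxygen-binding myoglobin, had 22.3 TPM and 1.42 TPM, a 17.8-fold ratio. Pygm, the muscle glycogen phosphorylase (chr19:6384399-6398459), had 1712 counts and 20.3 TPM in animal 1 against 1348 counts and 16.6 TPM in animal 2, a ratio of 1.20 (1.12 to 1.29). Eno3, the muscle enolase of glycolysis, had 805 counts and 15.9 TPM against 421 counts and 8.75 TPM, a ratio of 1.81 (1.60 to 2.04). Pygm was the highest of the 33 genes in animal 2, and the 4 energy genes held 23.2% of the set's TPM in animal 1 and 52.9% in animal 2. The transcripts of Eno3 were not separable, since a different transcript led in each table in animal 1.

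Of the Z-disc and fibre scaffold genes only Des had transcripts at 1 TPM in both animals. Des, the desmin intermediate filament of skeletal, heart and smooth muscle, had 974 counts and 10.1 TPM in animal 1 and 414 counts and 4.80 TPM in animal 2, a ratio of 2.22 (1.98 to 2.50). Actn2, the Z-disc alpha-actinin of all striated fibres, had 310 and 3 counts. Actn3, the alpha-actinin of fast fibres, had 152 and 18 counts, Myoz1, a Z-disc protein of fast fibres that binds calcineurin, 73 and 2 counts, and Xirp2, an actin-binding repeat protein, 604 and 2 counts. In TPM the last 4 ranged from 1.31 for Xirp2 to 2.90 for Actn2 in animal 1 and were at or under 0.22 in animal 2.

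Fast-fibre genes made up most of the signal that has a fibre type. The 13 fast genes summed to 149 TPM in animal 1, against 5.18 TPM in animal 2, the 7 slow genes to 17.9 and 1.14 TPM, and the 13 common genes to 202 and 44.3 TPM. At 3 counts or fewer in animal 2 were 10 of the 13 fast, 3 of the 7 slow and 3 of the 13 common genes. Of these 16 genes 13 had a mean count of at least 50, a level at which 0.192% of all genes had so few counts in animal 2. They reach that mean through animal 1 alone, and the set was chosen for this difference, so nothing is read from these numbers. The common genes held 54.8% of the set's TPM in animal 1 and 87.5% in animal 2, where Pygm, Tpm2, Eno3 and Des lead. Called 2-fold apart were 12 of 13 fast, 2 of 7 slow and 11 of 13 common genes, beside 1.75% of all 13569 genes tested. Only 2 of the slow genes had enough counts, and the set was chosen for this difference, so the fibre groups are not compared by these calls.

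The ratio of fast to slow forms within animal 1 does not depend on scaling. It describes the 33 genes, all chosen as higher in animal 1, and leaves out partners outside the set, such as Atp2a2, the calcium pump of slow fibres and many other cells, at 59.4 TPM beside 20.9 TPM for Atp2a1. Over 7 pairs of matching forms, the fast genes held 87.1% of the summed TPM in animal 1 (120 TPM against 17.9), and by counts 8017 against 1147, or 87.5% (95% Wilson interval 86.8 to 88.1). In 6 of the 7 pairs the fast form was the higher, with 97.0% for troponin I, 92.6% for troponin T, 90.0% for the heavy chains, 89.1% for troponin C, 84.6% for the essential and 78.5% for the regulatory light chains. Myosin binding protein C went the other way, with 33.6% for Mybpc2 against Mybpc1. The second table kept the side of all 7 pairs, from 34.8% for myosin binding protein C to 94.6% for troponin I. In animal 2 the pairs had 113 fast counts, 96 of them from Myl1, and 31 slow counts, too few for a share per pair. There is no second library with this signal, so the share in animal 1 has no replicate.

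**Figure D4:**
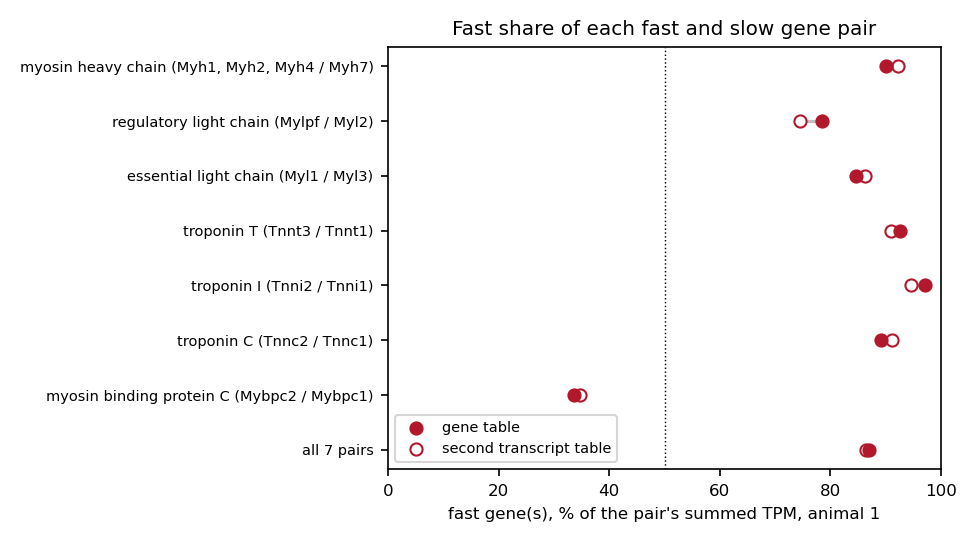
Share of the fast gene or genes in the summed TPM of each of 7 fast and slow pairs, and of all together, in animal 1. Filled circles are the gene table and open circles the second transcript table. The dotted line marks 50%. Only myosin binding protein C, at 33.6%, lies to its left.

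The 2 quantifications gave different absolute levels, and counts near 0 in animal 2 differed between them. The TPM listed in animal 2 also lay below its deposited interval for Tnnt3 (0.25, interval 0.79 to 1.83) and Ttn (0.01, 0.36 to 1.34), among others. For Myh7 it was 0, with an interval of 0.12 to 0.88. Levels near 0 in animal 2 are thus uncertain, and ratios given as at least a value rest on counts and do not use these intervals. The second table gave 840 TPM for the 33 genes in animal 1, against 93.1 TPM in animal 2, and it called 25 genes with the intervals ignored. The transcript with the most counts in animal 1 was the same in both for 24 of the 33 genes. It differed for Tnnt3, Myl1, Mb and Eno3, among others, so transcripts of those genes are not compared. Transcripts annotated as other than protein-coding held 1.76% of the set's counts in animal 1 and 3.29% in animal 2. No 100-base window was shared with another gene for 28 of the 33. Besides Gm20388, the genes Rabep2, Nisch, Ube2c, Pth1r and Apol6 overlap 1 of the 33 on the opposite strand with a mean count of at least 10, and none was called.

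Beyond the 33, other muscle genes differed in part. Of 25 other sarcomere genes 13 passed the count minimum and 9 were called with higher values in animal 1, beside 1.75% of all genes tested, with a median log2 ratio of 2.59 over the 22 with a mean count of at least 10. Tcap, the titin cap, had 157 and 1 counts, and Nrap, which helps assemble myofibrils, 300 and 1 counts. Myom1, Myom2, Ldb3, Myot, Flnc and Ankrd23 were also among those called. The highest members of that list, Tpm1 at 73.0 and 47.7 TPM and Tpm3 at 63.7 and 57.8 TPM, also serve non-muscle cells and were not called. In excitation coupling 8 of 15 genes passed the count minimum and 2 were called, the calcium channel Cacna1s at 222 and 18 counts and Hrc at 131 and 4 counts, whereas Atp2a2 stood at 59.4 TPM in animal 1 against 59.9 TPM in animal 2. In muscle metabolism 12 of 14 passed and 4 were called, Ckmt2 at 240 and 2 counts, Fabp3 at 77.9 and 18.5 TPM, Cox6a2 at 92 and 39 counts and Fbp2 at 92 and 38 counts. In muscle maintenance 4 of 11 passed and 2 were called, Hspb7 at 143 and 6 counts and Asb2 at 114 and 6 counts.

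The 10 myogenic regulators stayed low or alike. Myf5 and Pax7, of muscle precursors and stem cells, had 0 counts in both animals, Myod1 had 2 counts in animal 1 and 0 in animal 2, and Myog 1 and 0. Mef2c, which other cells also express, had 1058 counts in animal 1 and 767 in animal 2, and no gene of the list was called. Of 8 genes of the nerve-muscle junction and 4 developmental sarcomere genes none reached a mean count of 50. Myh8, the perinatal heavy chain, which shares windows with Myh1 and Myh2, had 27.9 counts in animal 1 and 0 in animal 2, and Actc1, cardiac actin, had 0 in both.

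The 15 protein-coding genes outside the 33 with the largest called ratios were Klhl31, 3425401B19Rik, Nrap, Tcap, Ckmt2, Myo18b, Myom2, Hrc, Cmya5, Hspb7, Asb2, Gpnmb, Alpk3, Jchain and Cacna1s. Of these 8 were in the muscle lists. Klhl31 had 122 counts in animal 1, against 0 in animal 2 (at least 38.4-fold, but 155 and 11.2 counts in the second table, below that bound), 3425401B19Rik 106 and 0, at least 33.4-fold, and Cmya5, a muscle protein of the Z-disc region, 639 and 27 counts. Jchain, the joining chain of plasma cell antibodies, had 124 and 9 counts, and Gpnmb, a glycoprotein of macrophages, 328 and 24 counts.

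Markers of neighbouring tissues stood beside these values as follows. In 12 heart genes the sum was 7.51 TPM in animal 1 and 5.23 TPM in animal 2, with Ryr2, the calcium release channel of heart and other cells, at 1.93 and 3.71 TPM. The median log2 ratio was 1.95 over the 5 with a mean count of at least 10. Nppb and Nkx2-5 were at 0 in both and Nppa at 1 and 0 counts, Tnni3 had 45 and 4 counts, Myh6 33.6 and 0 counts, and Casq2 was called at 104 and 25 counts. Smooth muscle genes summed to 103 and 69.3 TPM with none of 8 called, among them Acta2 at 25.2 and 12.5 TPM. Brown fat genes summed to 1110 TPM in animal 1, against 545 TPM in animal 2, with 2 of the 7 that passed called, Ucp1 at 743 and 298 TPM and Elovl3 at 76.8 and 25.6 TPM, and Zic1 at 0 in both. White fat genes summed to 2655 and 1892 TPM, with none of 8 called. Plasma cell genes summed to 62.6 and 13.7 TPM with 4 of the 5 that passed called, Igkc, Igha, Jchain and Ighg2c, and a median log2 ratio of 3.37. Most brown fat and plasma cell markers thus were higher in the same animal as the muscle genes. Dio2 of brown fat stood at 11.5 and 12.6 TPM, however, and Ighm of plasma cells at 12.0 and 9.41 TPM. Nor was this particular to brown fat, with a median log2 ratio of 0.58 beside 0.63 for white fat, 0.91 for mesothelium and 1.30 for liver genes. The part of these tissues in the result was not tested.

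The remaining lists were as follows. Tendon and fascia genes summed to 17.9 TPM in animal 1, against 14.7 TPM in animal 2, with Prg4 called higher in animal 1 and Thbs4 called higher in animal 2. Fibroblast genes summed to 127 and 108 TPM with none called, and erythroid genes to 2056 and 1577 TPM with none called. Nerve genes summed to 46.6 and 49.7 TPM, mesothelium genes to 11.8 and 7.13 TPM with Krt19 and Wt1 called, and liver genes to 21.3 and 8.62 TPM with Alb called at 846 and 237 counts, these 3 genes being higher in animal 1. Kidney genes summed to 1.45 and 1.74 TPM and pancreas genes to 26.7 and 26.5 TPM, nearly all from Cela1, and none was called.

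**Figure D5:**
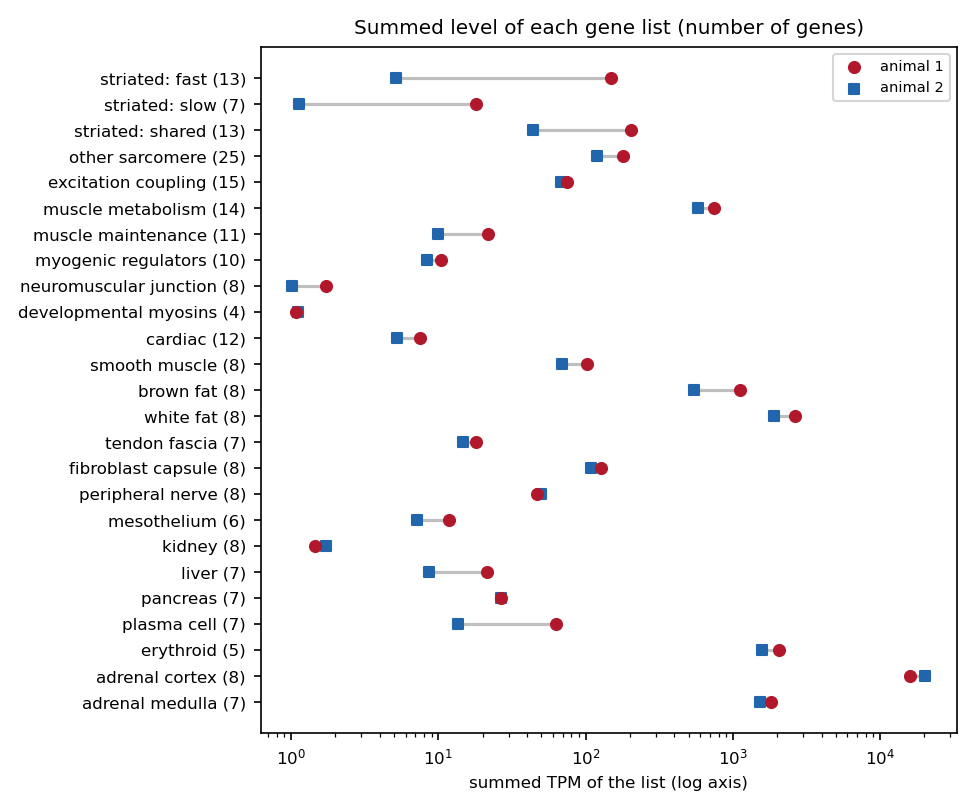
Summed TPM (log axis) of the 33 genes by fibre kind (top 3 lines) and of 22 other gene lists, with animal 1 as circles, animal 2 as squares and the number of genes in brackets. The fast and slow groups have the widest gaps, 149 against 5.18 TPM and 17.9 against 1.14 TPM, and the adrenal cortex list lies at 15869 and 20272 TPM.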

How the data were processed

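The deposited gene and transcript tables hold expected counts (estimated reads, not whole) and TPM, per the file headers, together with interval bounds of TPM of unstated level. Per the deposited description they derive from an alignment to the transcriptome (mm10, GENCODE M21). A second deposited transcript table holds estimated counts and TPM made from the read files and an index, per the file headers and the deposited description, and was summed per gene. No source used here names the programs. Also deposited is each transcript's percent of its gene, which no result uses.

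TMM scaling of the rounded expected counts used edgeR 4.0.16 under R 4.3.3, and 0.5 was added for log2 ratios of animal 1 over animal 2. Spike-ins (96 entries, 0.886% of counts in animal 1 and 0.730% in animal 2) and entries named only by a number were left out of this scaling. They are included in the total counts, the percentages of the library and the CPM values. Ratios carry exact 95% counting intervals. A count of 0 was taken to allow 3 counts, or 0.0839 CPM in animal 1 and 0.0854 CPM in animal 2. Alternatives were DESeq2 1.42.0 size factors, spike-in totals, other minimums and the second table. The scaling was also run on simulated Poisson counts that hold no spread between animals, so this run cannot speak to such spread. The 33 genes, the 22 lists and the rules were chosen with earlier results of these data known. Named are all 33 genes, the 3 highest and any called gene of a list where the text turns on them, and the 15 other genes with the largest ratios. Some list genes that the naming rule covers are not reported here.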

Additional observations from a re-analysis of the deposited data

How the results depend on the processing

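The number of the 33 genes called 2-fold apart was 25 and lay between 22 (mean count of at least 100) and 31 (mean count of at least 10, or no minimum) over 9 alternatives, with higher values in animal 1 throughout. Their median log2 ratio of 6.39 stayed positive and was 6.17 with spike-in totals, 4.50 with ratios of TPM (0.01 added), 6.20 with 1 added to each count, 5.17 with counts under 3 set to 3, 6.53 over genes past the count minimum of 50 and 6.04 in the second table. Its size thus depends on how counts near 0 in animal 2 are treated. The summed level, a mean of 210 TPM, became 709 over nuclear protein-coding genes alone, whose smaller denominator raises every level, and 466 in the second table, and with 1 animal left out it lay between 50.6 and 369 TPM. Of the genes at 1 TPM or more in both animals, 7, there were 3 at 5 TPM, and between 7 and 32 with 1 animal left out. The fast share in animal 1, 87.1%, was 85.0% by the deposited posterior mean TPM and 89.2% without myosin binding protein C. No paired analysis was possible because the series has 1 group. The 7 genes at 0 counts in animal 2 have no upper bound on their ratio of animal 1 over animal 2. Of the 7 slow-fibre genes only 2, Myh7 and Mybpc1, reached a mean count of 50, and the others had too few counts for a call.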
